A study of Mus musculus with 6 samples.

Results

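The genes described here are 36 genes that mark lymphocytes, matched by symbol among the 40564 genes of each deposited table, and all 36 were found. They comprise 16 genes of T cells, 13 genes of B cells and 7 genes of natural killer (NK) and cytotoxic cells. They were measured by bulk RNA sequencing in 6 libraries of mouse bronchoalveolar lavage (BALF) cells, which are rinsed from the air-filled spaces of the lung with fluid. The libraries fell into 3 groups of 2. The group Cis WT carries the genotype label WT, the group Cis KO the label KO, and the group Cis Stat6 KO the label Double KO. None of the groups was treated, all 6 libraries share 1 batch date, and RNA was taken with Trizol. CIS, the protein of the gene Cish, is an inhibitor of cytokine receptor signalling, and STAT6 is a transcription factor that interleukin 4 and interleukin 13 activate. Strain, age and sex of the mice, the way the alleles were made and whether the 2 replicates of a group came from separate mice are not given in the labels, so p-values measure only the spread between these libraries.

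Lavage of a healthy lung yields mostly alveolar macrophages, with a small number of lymphocytes. T cells recognise antigen through a receptor whose variable chains are carried to the surface by the CD3 proteins, and the kinase LCK starts the signal inside the cell. B cells use a membrane immunoglobulin for the same purpose, which signals through CD79A and CD79B, and B cells that become plasma cells secrete immunoglobulin and lower much of that surface machinery. NK cells carry no rearranged receptor and kill through perforin and granzymes, which activated CD8 T cells also make.

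Promoter sequences are shown for 6 genes around which the results turn, as the bases upstream of the start site in RefSeq on GRCm38.p6, the assembly that mm10 denotes, read 5′ to 3′ on the gene's own strand, and cut short for Cd79a and Prf1 where the gene begins in the files. Cd79a and Jchain are the B cell genes that marked different libraries, Cd3d and Cd3g are neighbours that moved apart in 1 library, and Gzmb and Prf1 are the granule genes. Capitals in the first 4 mark CAGGTG or its reverse complement CACCTG, an E-box sequence of the kind that E proteins of lymphocytes bind. Capitals in the Gzmb and Prf1 sequences mark TGTGGT or its reverse complement ACCACA, the core that RUNX factors bind.
Cd79a, chr7:24897247-24897380, plus strand: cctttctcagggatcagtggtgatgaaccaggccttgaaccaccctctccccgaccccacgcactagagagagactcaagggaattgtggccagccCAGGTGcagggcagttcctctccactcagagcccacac
Jchain, chr5:88527898-88528147, minus strand: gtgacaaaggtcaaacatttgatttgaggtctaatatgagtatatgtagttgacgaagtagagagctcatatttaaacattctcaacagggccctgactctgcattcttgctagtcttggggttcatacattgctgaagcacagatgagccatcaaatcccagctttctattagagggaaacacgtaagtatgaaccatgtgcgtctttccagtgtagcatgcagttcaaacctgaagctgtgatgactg
Cd3d, chr9:44981536-44981785, plus strand: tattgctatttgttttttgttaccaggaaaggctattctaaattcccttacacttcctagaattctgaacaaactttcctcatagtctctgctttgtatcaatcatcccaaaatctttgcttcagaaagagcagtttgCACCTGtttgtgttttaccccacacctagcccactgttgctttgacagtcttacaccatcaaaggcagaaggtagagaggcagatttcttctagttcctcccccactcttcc
Cd3g, chr9:44980432-44980681, minus strand: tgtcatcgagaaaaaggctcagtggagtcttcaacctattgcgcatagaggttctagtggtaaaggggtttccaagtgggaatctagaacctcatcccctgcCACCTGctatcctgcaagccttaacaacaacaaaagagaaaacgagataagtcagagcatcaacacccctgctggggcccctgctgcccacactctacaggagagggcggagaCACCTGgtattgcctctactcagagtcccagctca
Gzmb, chr14:56262335-56262584, minus strand: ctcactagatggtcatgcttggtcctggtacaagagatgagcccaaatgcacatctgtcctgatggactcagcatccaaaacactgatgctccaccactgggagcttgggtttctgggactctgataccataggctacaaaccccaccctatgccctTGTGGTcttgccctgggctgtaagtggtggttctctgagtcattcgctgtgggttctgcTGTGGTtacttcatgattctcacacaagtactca
Prf1, chr10:61297586-61297832, plus strand: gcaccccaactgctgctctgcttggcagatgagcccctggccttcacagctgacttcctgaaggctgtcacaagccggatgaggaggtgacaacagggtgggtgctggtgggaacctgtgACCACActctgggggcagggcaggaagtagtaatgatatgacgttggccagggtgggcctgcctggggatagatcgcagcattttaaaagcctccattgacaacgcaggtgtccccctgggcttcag

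The E-box occurred once in the Cd79a sequence, once in Cd3d, 2 times in Cd3g and 0 times in Jchain. The RefSeq table held an upstream window of 250 bases for 25 of the 36 genes. Counting both strands, 17.2% of all 32851 windows of that length held the E-box. Some genes have several windows, and counted by gene it was held by 5252 of 27025. Shares over all windows are per window, whereas the lymphocyte genes are counted by gene, so the 2 are not on the same footing. The E-box was found for 4 of 11 T genes (Lck, Cd3g, Cd3d and Cd5), 4 of 7 B genes (Fcrla, Cr2, Bank1 and Cd79a) and 2 of 7 NK and cytotoxic genes (Prf1 and Gzma). TGTGGT was held by 14.0% of all windows, by 6 of 7 NK and cytotoxic genes, by 1 of 11 T genes and by 1 of 7 B genes. Of the 3 other motifs searched on both strands, the octamer ATGCAAAT was found for none of the 25 genes, AGATAA, of GATA factors, for 1 T gene and CTTTGA, of TCF and LEF factors, for 3 T genes. Their shares over all windows were 1.60%, 9.99% and 13.8%. A match describes the letters of a window and is neither a binding site nor a cause of the levels that follow.

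Library totals lay between 50762354 and 65937118 counts, so that 3 counts, taken here as the most that a count of 0 leaves possible, equalled 0.0433 to 0.0685 CPM. CPM is the read count per 1000000 counts after scaling for library composition (TMM), and FPKM, as deposited, divides by gene length as well. Cish stood at 46.2 and 56.2 CPM in Cis WT, 4.34 and 3.52 in Cis KO, and 1.72 and 5.04 in Cis Stat6 KO. Stat6 stood at 31.6 and 25.5 CPM in Cis Stat6 KO and at 221 to 264 in the other 4 libraries. The 15 alveolar macrophage markers, led by Chil3 and Ear2, had counts in every library and summed to 17841 to 43071 CPM. Cis KO replicate 2 stood apart. Haemoglobin took 3.29% of its counts, against at most 0.0366% elsewhere, and of 4532 genes that had at least 10 counts in each other library at a mean of at most 500, 13.4% were at 0 there, against 0.211% to 1.42% in the same check of the other 5 libraries. A gene at 0 in Cis KO replicate 2 is therefore less informative than a 0 elsewhere, and results that rest on that library are given with its name.

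Lymphocyte genes were a small part of every library. The 36 genes together took 61.8 and 19.3 of every 1000000 counts, without that scaling, in Cis WT replicates 1 and 2, 35.8 and 154 in Cis KO, and 13.4 and 103 in Cis Stat6 KO. Within each genotype 1 library held several times the lymphocyte RNA of the other, and the ranges of the 3 groups overlapped. Between 25 and 33 of the 36 genes had a count in a library, and 10, 2, 3, 7, 1 and 8 genes exceeded 1 FPKM in the 6 libraries in that order. The libraries differed in which lymphocyte genes they held. Cis WT replicate 1 had the highest T sum, with Ighm as its leading B gene. Cis WT replicate 2 and Cis Stat6 KO replicate 1 had little of any lineage. Cis KO replicate 1 held T and granule genes, with the B receptor genes Cd79a, Cd79b and Ighd at 0. Cis KO replicate 2 held most B genes, Ighd among them and Jchain at 0, together with 12 of 16 T genes and few granule genes. Cis Stat6 KO replicate 2 held T genes, the highest Gzmb and Prf1, and Igkc, Ighm and Jchain with little Cd79a or Cd79b. In bulk RNA, fewer cells of a type and less RNA per cell cannot be told apart, and every statement on a mixture below is a statement on RNA.

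**Figure D1:**
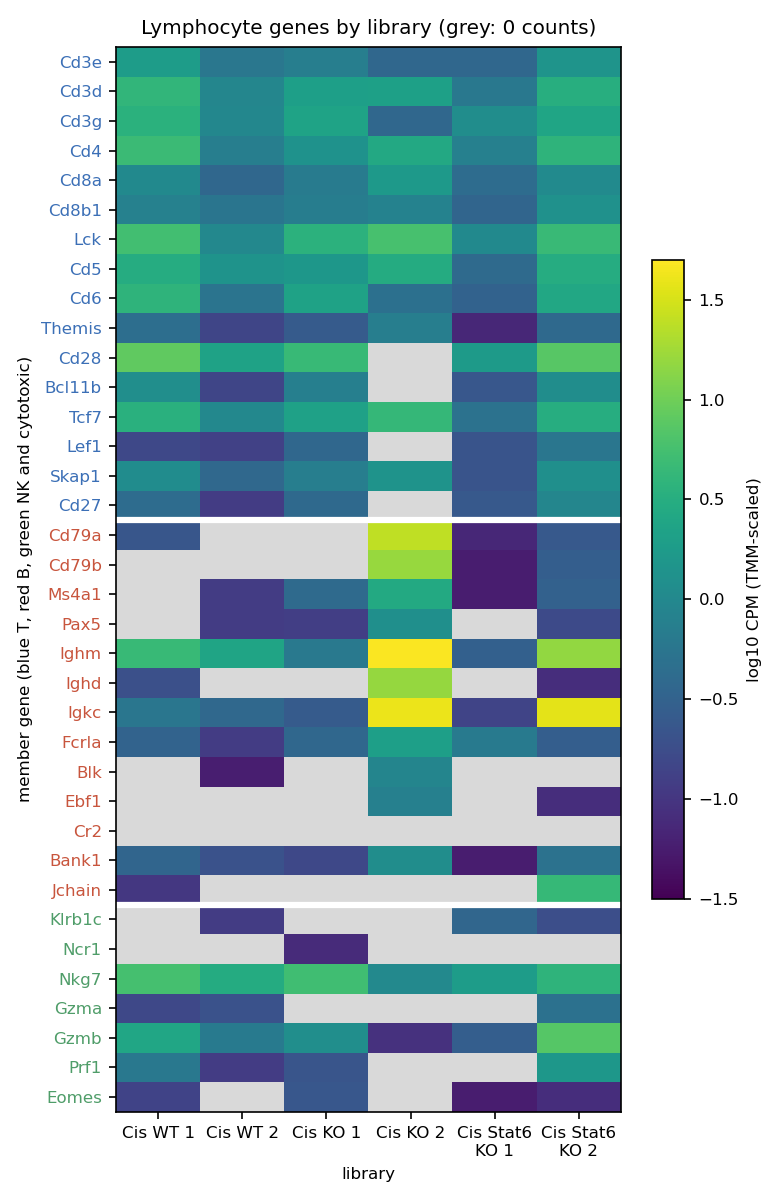
Level of the 36 lymphocyte genes (rows) in the 6 libraries (columns), as log10 of CPM, with genes at 0 counts in grey. T genes are filled in all columns except 4 grey cells in Cis KO 2, B genes are bright in Cis KO 2, and in Cis Stat6 KO 2 the bright B genes are Igkc, Ighm and Jchain.

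Within each genotype, the T sum and the NK and cytotoxic sum were higher in the same library, whereas in Cis KO the B sum was higher in the other one. The summed level of the 16 T genes was 43.4 and 11.2 CPM in Cis WT replicates 1 and 2, 24.3 and 23.8 in Cis KO, and 8.74 and 38.5 in Cis Stat6 KO. The T sum was highest in Cis WT replicate 1 and Cis Stat6 KO replicate 2 and lowest in the partners of those libraries, and the ranges of the 3 groups overlapped. Its mean was 27.3 ± 22.8 CPM (SD, n = 2) in Cis WT, 24.1 ± 0.410 in Cis KO and 23.6 ± 21.1 in Cis Stat6 KO. The summed level of the 13 B genes was 6.30 and 3.32 CPM in Cis WT, 1.95 and 154 in Cis KO, and 1.36 and 58.6 in Cis Stat6 KO. B genes were thus high in 1 library of each mutant group, 78.8 times the level of the other Cis KO library and 43.2 times that of the other Cis Stat6 KO library, and the corresponding ratio in Cis WT was 1.90. The summed level of the 7 NK and cytotoxic genes was 9.04 and 4.03 CPM in Cis WT, 6.92 and 1.10 in Cis KO, and 2.59 and 13.4 in Cis Stat6 KO. This sum was lowest in the library in which the B sum was highest, and highest in Cis Stat6 KO replicate 2.

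**Figure D2:**
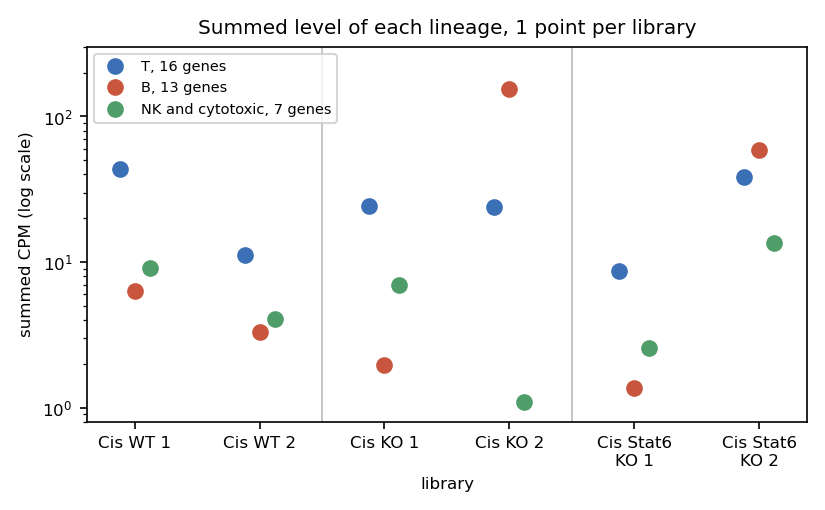
Summed CPM of the T, B and NK and cytotoxic genes (log axis), 1 point per library and lineage, with vertical lines between the genotypes. T points lie between 8.74 and 43.4, whereas B points run from 1.36 to 154, with the 2 highest in Cis KO 2 and Cis Stat6 KO 2.

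Lineage shares were taken per length, as the mean FPKM of a lineage's genes in the sum of the 3 lineage means. The B share was 13.7% and 17.3% in Cis WT, 5.84% and 94.5% in Cis KO, and 12.4% and 74.3% in Cis Stat6 KO. The T share was 32.9% and 21.1% in Cis WT, 28.5% and 4.01% in Cis KO, and 27.1% and 7.88% in Cis Stat6 KO. The NK and cytotoxic share was 53.4% and 61.6% in Cis WT, 65.7% and 1.44% in Cis KO, and 60.4% and 17.8% in Cis Stat6 KO. By this measure 4 libraries had a like order, with NK and cytotoxic genes first, T genes next and B genes last, and the other 2 were led by B genes. These are shares of RNA over unequal gene lists and not shares of cells, and they depend on a few genes of high level. Nkg7, a short gene of cytotoxic granule membranes, gave 62.8% to 74.7% of the NK and cytotoxic counts in the 4 libraries led by that lineage. With the median FPKM of a lineage in place of the mean, the T share rose to 73.8% and 75.0% in Cis WT, to 82.6% in Cis KO replicate 1 and to 84.0% in Cis Stat6 KO replicate 1. Cis KO replicate 2 stayed led by B genes by the median, at 75.6%, whereas Cis Stat6 KO replicate 2 did not, with shares of 47.4% for T, 45.7% for NK and cytotoxic and 6.86% for B genes.

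Immunoglobulin genes set the B share in only 1 of the 2 B-led libraries. Without Ighm, Ighd, Igkc and Jchain, the B share stayed at 84.5% in Cis KO replicate 2 and fell to 3.42% in Cis Stat6 KO replicate 2. The other 4 libraries then lay at 2.01% to 10.1%. Cis KO replicate 2 thus held RNA of most B genes, and Cis Stat6 KO replicate 2 held immunoglobulin RNA with little of the rest.

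**Figure D3:**
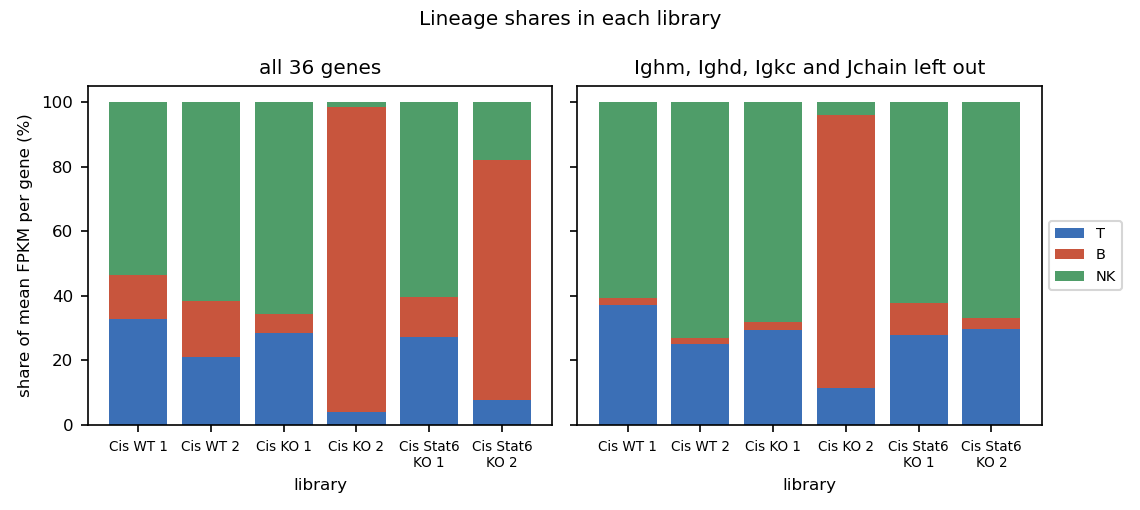
Share of the mean FPKM per gene (percent) taken by T, B and NK and cytotoxic genes in each library, with all 36 genes on the left and without Ighm, Ighd, Igkc and Jchain on the right. The B share of Cis KO 2 is 94.5% and 84.5% in the 2 panels, and that of Cis Stat6 KO 2 is 74.3% and 3.42%.

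The B cell receptor genes showed that difference gene by gene. Cd79a (chr7:24897381-24902197 in mm10), a signalling chain of the B cell receptor, stood at 0.224 and 0 CPM in Cis WT, 0 and 24.7 in Cis KO, and 0.0722 and 0.247 in Cis Stat6 KO. Its partner Cd79b (chr11:106311341-106314762) stood at 0 and 0 CPM in Cis WT, 0 and 16.1 in Cis KO, and 0.0578 and 0.288 in Cis Stat6 KO. Ighd (chr12:113406604-113416324), the constant region of IgD, which marks mature naive B cells, stood at 0.190 and 0 CPM in Cis WT, 0 and 15.5 in Cis KO, and 0 and 0.0823 in Cis Stat6 KO. All 3 were high in Cis KO replicate 2 alone, and in the other Cis KO library they had no count.

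Ighm (chr12:113418558-113422730), the constant region of IgM, stood at 4.54 and 2.32 CPM in Cis WT, 0.625 and 48.5 in Cis KO, and 0.303 and 15.0 in Cis Stat6 KO. Igkc (chr6:70726435-70726966), the constant region of the kappa light chain, stood at 0.569 and 0.380 CPM in Cis WT, 0.266 and 40.2 in Cis KO, and 0.144 and 37.3 in Cis Stat6 KO. Both genes were high in the 2 B-led libraries, and Igkc was nearly equal in them. Jchain (chr5:88519809-88527891), which joins IgM and IgA units into secreted polymers, stood at 0.104 and 0 CPM in Cis WT, 0 and 0 in Cis KO, and 0 and 4.40 in Cis Stat6 KO. Jchain was high in Cis Stat6 KO replicate 2 alone, with 214 counts, and was at 0 in the other B-led library, where 3 counts equal 0.0685 CPM. That bound covers counting error only, and a 0 in Cis KO replicate 2 is less informative, as given above.

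Ratios within a library do not depend on how much lymphocyte RNA it held. In FPKM, Igkc and Cd79a stood at 58.5 and 13.1 in Cis KO replicate 2 and at 58.6 and 0.14 in Cis Stat6 KO replicate 2. Ighd gave 24.3% of the summed counts of Ighd and Ighm in Cis KO replicate 2 (95% Clopper-Pearson interval 22.7% to 25.9%) and 0.546% in Cis Stat6 KO replicate 2 (0.149% to 1.39%). In Cis WT replicate 1 that share was 4.01% (2.02% to 7.07%), and the other 3 libraries had no Ighd count beside 21 to 159 counts of Ighm. Jchain gave 10.6% of the summed counts of Jchain and Igkc in Cis Stat6 KO replicate 2 (9.26% to 11.98%) and 0% in Cis KO replicate 2 (0% to 0.209%). These intervals cover counting error only, and each rests on 1 library.

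**Figure D4:**
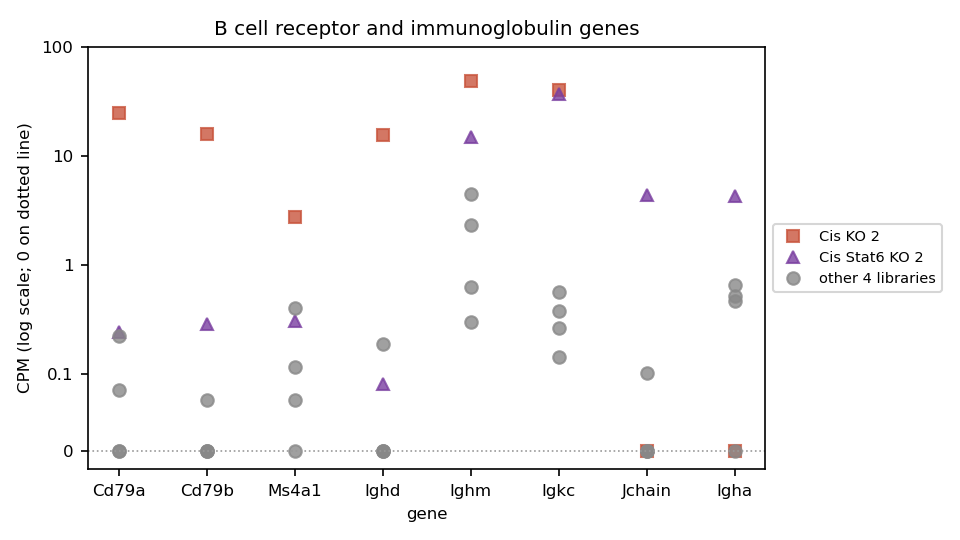
CPM of 8 B cell receptor and immunoglobulin genes (log axis, 0 on the dotted line), with Cis KO 2 as squares, Cis Stat6 KO 2 as triangles and the other 4 libraries as circles. Squares lie far above all other points for Cd79a, Cd79b and Ighd, the squares and triangles meet at Igkc, and triangles lead for Jchain and Igha.

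The remaining B genes followed Cis KO replicate 2 as well. Of the 12 B genes with a count in any library, 11 were highest there by CPM, and the exception was Jchain. By FPKM and by counts per library total, Igkc was also slightly higher in Cis Stat6 KO replicate 2, which left 10. Ms4a1, which encodes CD20, stood at 0 and 0.117 CPM in Cis WT, 0.406 and 2.76 in Cis KO, and 0.0578 and 0.308 in Cis Stat6 KO. Its 2 Cis KO libraries both lay above the 4 others. Pax5 and Ebf1, the transcription factors that fix B cell identity, had 54 and 34 counts in Cis KO replicate 2 and at most 8 and 4 elsewhere. The kinase Blk had 40 counts there and 4 in 1 other library. The adaptor Bank1 had 51 counts there and 4 to 25 elsewhere. The Fc receptor-like gene Fcrla had 89 counts there and 8 to 46 elsewhere. Cr2, the complement receptor CD21 of mature B cells, had 0 counts in all 6 libraries.

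Antigen receptor segments, which are not among the 36 genes, showed how the B cell RNA was spread over variable regions. Their names were chosen after their values were seen, and reads from near-identical segments may have been assigned to the wrong one. Kappa variable segments had 307 counts over 12 segments in Cis KO replicate 2, led by Igkv1-110 with 15.6% (11.8% to 20.2%). In Cis Stat6 KO replicate 2 they had 959 counts over 28 segments, led by Igkv1-135 with 43.3% (40.1% to 46.5%). Segments with a count were more numerous in the library with more counts, and the numbers are not matched for depth. The leading segment held a larger share there, and the other 4 libraries had 3 to 34 kappa variable counts each. Heavy variable segments had 114 counts over 3 segments in Cis KO replicate 2, with Ighv9-3 at 52.6% (43.1% to 62.1%). They had 189 counts over 16 segments in Cis Stat6 KO replicate 2, with Ighv1-5 at 41.3% (34.2% to 48.6%). Igha, the constant region of the mucosal antibody IgA, had 27 and 36 counts in Cis WT, 0 and 0 in Cis KO, and 46 and 210 in Cis Stat6 KO. It held 84.0% (78.9% to 88.3%) of the 250 counts of the 6 class-switched heavy chain genes in Cis Stat6 KO replicate 2, and Cis KO replicate 2 had no count of any of the 6. Zeros in Cis KO replicate 2, among segments and constant regions alike, are less informative, as given above.

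Other B lineage genes were counted from fixed lists. Of 18 genes of B cell receptor signalling, 17 were tested and none passed the adjusted threshold described below in any comparison. The 2 with the highest level per length, Syk and Cd22, had at least 24782 and 10716 counts in every library, so they do not mark B cells in lavage. By CPM, 9 of the 18 were highest in Cis KO replicate 2. Picked from that list after their values were seen, Cd72, Fcer2a, Fcmr, Spib and Vpreb3 had 381, 150, 330, 413 and 156 counts in Cis KO replicate 2 and at most 26, 8, 20, 23 and 33 elsewhere. Other genes of the list did not follow, since Cd55 had 0 counts there and 18 to 43 elsewhere, Pou2af1 29 there and 93 in Cis WT replicate 1, and Blnk 43 there and 22 to 54 elsewhere. Of 9 plasma cell genes, 7 were tested and none passed. Xbp1 and Txndc5, the 2 with the highest level, had at least 13145 and 3846 counts in all libraries. Tnfrsf17 was at 0 in all 6 libraries. Of the other 8, 6 were lowest in CPM, or tied for lowest, in Cis Stat6 KO replicate 2. Mzb1, a chaperone gene of B and plasma cells picked after its values were seen, had 8 and 0 counts in Cis WT, 0 and 96 in Cis KO, and 0 and 0 in Cis Stat6 KO. Irf4, a transcription factor of plasma cells that other immune cells also make, was highest in Cis Stat6 KO replicate 2 at 14.0 CPM, against 3.54 to 12.3 elsewhere. Derl3 had 116 counts in each of the 2 B-led libraries and 90 to 105 elsewhere.

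Markers of blood and marrow cells moved with the B genes in Cis KO replicate 2. The 11 erythrocyte and platelet genes summed to 38672 CPM there and to 15.5 to 359 elsewhere, and all 11 had a count there, among them Slc4a1. The 12 neutrophil genes summed to 832 CPM there and to 175 to 303 elsewhere. Among them the primary granule genes Elane and Mpo had 206 and 248 counts there and at most 7 and 47 elsewhere, and the secondary granule genes Ngp and Camp had 3728 and 1265 there and at most 36 and 27 elsewhere. The 12 epithelial and stromal genes summed to 187 CPM there and to 18.0 to 86.1 elsewhere, with Cdh5, Col1a1, Col3a1 and Dcn at 0. The part of these cell types in the B gene levels was not tested. In Cis Stat6 KO replicate 2, the same 3 sums were 49.5, 303 and 18.0 CPM, so the erythrocyte and platelet sum lay within the range of the 4 libraries with low B genes and the neutrophil sum above their 175 to 280 CPM. The 2 neutrophil genes S100a8 and S100a9 stood at 81.6 and 72.3 CPM in it, at 189 and 133 in Cis KO replicate 2, at 32.2 and 27.7 in Cis Stat6 KO replicate 1, and at most at 16.6 and 1.35 in the other 3 libraries. They were thus higher in both B-led libraries than in any other. They are 2 of the 12 neutrophil genes, and they gave 81.6 and 72.3 of the 303 CPM in Cis Stat6 KO replicate 2. By CPM, 0 of the 12 were highest in that library, whereas 9 were highest in Cis KO replicate 2.

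T genes were spread more evenly. The 16 T genes all had counts in 5 libraries, and 12 of them in Cis KO replicate 2. By CPM, the highest library was Cis WT replicate 1 for 8 genes, Cis KO replicate 2 for 5 and Cis Stat6 KO replicate 2 for 3. Cis Stat6 KO replicate 2 was among the 3 highest for all 16 genes, Cis WT replicate 1 for 15, and Cis WT replicate 2 for none.

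Among the CD3 chains, Cd3d (chr9:44981786-44987339) stood at 4.07 and 0.935 CPM in Cis WT, 2.00 and 2.10 in Cis KO, and 0.607 and 3.25 in Cis Stat6 KO. Cd3g (chr9:44969572-44980431) stood at 3.50 and 0.965 CPM in Cis WT, 2.28 and 0.365 in Cis KO, and 1.18 and 2.43 in Cis Stat6 KO. Cd3e (chr9:44998740-45009622 in the files) stood at 1.86 and 0.585 CPM in Cis WT, 0.735 and 0.365 in Cis KO, and 0.376 and 1.44 in Cis Stat6 KO. The 3 chains are made in fixed proportion in the receptor, and their genes lie side by side, with the start sites of Cd3g and Cd3d 1355 bases apart and pointing away from each other. Cd3g gave 42.8% to 66.1% of the summed counts of Cd3g and Cd3d in 5 libraries and 14.8% in Cis KO replicate 2 (95% Clopper-Pearson interval 8.71% to 22.9%), below the lower bounds of the intervals of the other 5. The intervals cover counting error only, and in Cis KO replicate 2 13.4% of the genes checked above were at 0. The promoter sequences of the pair, shown above, both hold the E-box.

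**Figure D5:**
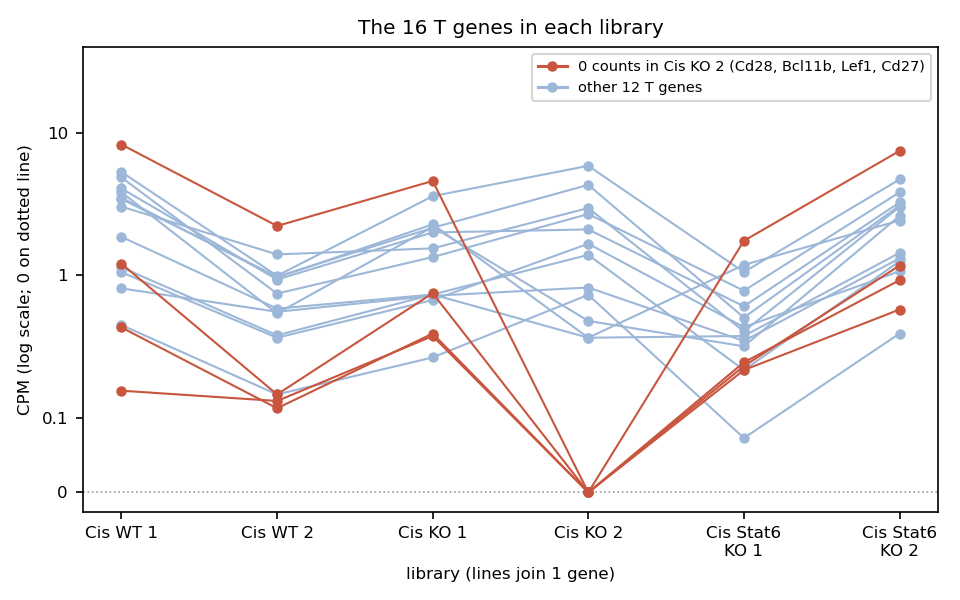
CPM of each of the 16 T genes across the libraries (log axis, 0 on the dotted line), with lines that join the points of 1 gene. The 4 red genes, Cd28, Bcl11b, Lef1 and Cd27, are at 0 in Cis KO 2 and above 0 in the other 5 libraries, and the 12 blue genes have counts in all.

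Signalling and surface genes of T cells differed in how they treated that library. The kinase gene Lck (chr4:129548344-129558391 in the files) stood at 5.31 and 0.994 CPM in Cis WT, 3.59 and 5.87 in Cis KO, and 1.05 and 4.71 in Cis Stat6 KO. Cd28 (chr1:60716800-60773359), the main costimulatory receptor, stood at 8.28 and 2.22 CPM in Cis WT, 4.59 and 0 in Cis KO, and 1.75 and 7.46 in Cis Stat6 KO. Lck was highest in Cis KO replicate 2 by CPM, but in Cis WT replicate 1 by FPKM, by counts per library total and by counts (308 against 257). Cd28, the T gene with the most counts in each other library, was at 0 in Cis KO replicate 2. Cd6, a surface receptor of T cells, had 21 counts in that library and 22 to 222 elsewhere, while its relative Cd5 had 130 there and 28 to 176 elsewhere. By CPM, Cd6 was not lowest there, with 0.480 against 0.318 in Cis Stat6 KO replicate 1. The adaptor gene Skap1 had 61 counts there and 15 to 66 elsewhere, and Themis, needed for thymocyte selection, had 32 there and 5 to 26 elsewhere.

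The transcription factors divided likewise. Tcf7 (chr11:52252371-52283331 in the files), which encodes TCF-1 of naive and memory T cells, stood at 3.43 and 0.979 CPM in Cis WT, 2.16 and 4.32 in Cis KO, and 0.506 and 3.08 in Cis Stat6 KO. Bcl11b, which keeps T cell identity, stood at 1.21 and 0.146 CPM in Cis WT, 0.750 and 0 in Cis KO, and 0.231 and 1.17 in Cis Stat6 KO. Lef1, a relative of Tcf7, had 9 and 9 counts in Cis WT, 24 and 0 in Cis KO, and 15 and 28 in Cis Stat6 KO. The costimulatory receptor Cd27 had 25 and 8 counts in Cis WT, 25 and 0 in Cis KO, and 17 and 45 in Cis Stat6 KO. Tcf7 was highest in the library in which the other 3 were at 0. Of the genes in the check above, 13.4% were at 0 in that library. Lef1 and Cd27 had fewer than 10 counts in at least 1 other library and so fall outside that check. Whether the 4 zeros follow T cell state was not tested.

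The coreceptors were both present in each library. Cd4, also made by some macrophages and dendritic cells, stood at 4.87 and 0.745 CPM in Cis WT, 1.34 and 2.69 in Cis KO, and 0.780 and 3.82 in Cis Stat6 KO. Cd8a, also made by some dendritic cells, stood at 1.05 and 0.365 CPM in Cis WT, 0.672 and 1.67 in Cis KO, and 0.433 and 1.07 in Cis Stat6 KO. Cd8b1, the chain more restricted to T cells, had 24 to 64 counts in each library. In FPKM, Cd4 exceeded Cd8a in all 6 libraries, with Cd8a to Cd4 ratios of 0.237 and 0.529 in Cis WT, 0.545 and 0.686 in Cis KO, and 0.611 and 0.308 in Cis Stat6 KO. Cd4 did not exceed Cd8b1 in all of them. Cd8b1 stood at 0.51 and 0.34 FPKM in Cis WT, 0.47 and 0.42 in Cis KO, and 0.23 and 0.74 in Cis Stat6 KO. Cd4 stood at 1.14 and 0.17, 0.33 and 0.51, and 0.18 and 0.78 in that order. Cd8b1 was thus the higher in Cis WT replicate 2, Cis KO replicate 1 and Cis Stat6 KO replicate 1, and Cd4 in the others. The 2 libraries with the most T RNA, Cis WT replicate 1 and Cis Stat6 KO replicate 2, had the lowest ratios.

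T cell receptor genes gave the same picture from outside the 36. Trac, the constant region of the alpha chain, had 170 and 30 counts in Cis WT, 97 and 124 in Cis KO, and 25 and 141 in Cis Stat6 KO. The 2 beta constant regions, which are near-identical and are summed here, had 662 and 190 counts in Cis WT, 396 and 262 in Cis KO, and 171 and 319 in Cis Stat6 KO. Like the T sum, they were highest in Cis WT replicate 1 and lowest in Cis Stat6 KO replicate 1. Of 28 beta variable segments, 17 and 10 had a count in Cis WT, 13 and 3 in Cis KO, and 6 and 12 in Cis Stat6 KO. Cis KO replicate 2 had the fewest, with 81 counts over 3 segments, of which Trbv19 held 44.4% (33.4% to 55.9%). Cis Stat6 KO replicate 1 had 22 counts over 6 segments, so more segments were seen there from fewer counts. In Cis KO replicate 2, however, 13.4% of the genes checked above were at 0. The part of such zeros in its segment numbers was not tested. The delta constant region Trdc had 2 to 20 counts in 5 libraries and 0 in Cis KO replicate 2.

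Genes of T cell state, from a fixed list of 16, also parted in Cis KO replicate 2. Ccr7, the homing receptor for lymph nodes that dendritic cells also make and the gene of that list with the highest level per length, stood at 8.57 and 2.05 CPM in Cis WT, 7.88 and 11.6 in Cis KO, and 3.08 and 7.75 in Cis Stat6 KO. Ccr7 was highest in Cis KO replicate 2. Against that, 8 of the 16 were at 0 there, among them Tbx21, Gata3, Cxcr3, Cxcr6, Ccr6, Zbtb16 and Trdc, which mark effector, tissue or innate-like T cells. At most 1 of the 16 was at 0 in any other library. Of the 18 genes of T cell receptor signalling, Ctla4, an inhibitory receptor of activated and regulatory T cells, had 818 and 175 counts in Cis WT, 631 and 9 in Cis KO, and 120 and 379 in Cis Stat6 KO. In the other 5 libraries it had the same 3 libraries high as the T sum. Ctla4 was picked after its values were seen. In that list Cd2, the gene with the highest level per length, had at least 13074 counts in every library and so was not limited to T cells.

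The NK and cytotoxic genes did not bear out NK cells as a clear component. Ncr1, the receptor NKp46 that defines NK cells, had 5 counts in Cis KO replicate 1 and 0 in the other 5 libraries. Klrb1c, the NK1.1 receptor, had 0 and 8 counts in Cis WT, 0 and 0 in Cis KO, and 25 and 9 in Cis Stat6 KO. Eomes, a transcription factor of NK and CD8 T cells, had 8 and 0 counts in Cis WT, 15 and 0 in Cis KO, and 4 and 4 in Cis Stat6 KO. These 3 restricted genes therefore stood at or close to 0 throughout. Of a fixed list of 15 further NK genes, 7 to 10 were at 0 in each library, and Klra8, Klra4 and Klrc2 were at 0 in all 6. The 2 with the highest level per length, Ccl5 and Il2rb, are also made by T cells, and their highest counts, 246 and 368, were in Cis WT replicate 1.

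The granule genes, which cytotoxic T cells share, supplied nearly all of the NK and cytotoxic counts. Nkg7 (chr7:43437073-43438249) stood at 5.68 and 2.94 CPM in Cis WT, 5.17 and 1.00 in Cis KO, and 1.88 and 3.87 in Cis Stat6 KO. Gzmb (chr14:56258838-56262260), which encodes granzyme B, stood at 2.47 and 0.658 CPM in Cis WT, 1.22 and 0.0913 in Cis KO, and 0.289 and 7.20 in Cis Stat6 KO. Prf1 (chr10:61297833-61304680), which encodes perforin, stood at 0.604 and 0.117 CPM in Cis WT, 0.219 and 0 in Cis KO, and 0 and 1.58 in Cis Stat6 KO. Gzmb and Prf1 shared the order of their 4 highest libraries, with Cis Stat6 KO replicate 2 first and Cis WT replicate 1 next. Gzmb gave 80.3% to 84.9% of the summed counts of Gzmb and Prf1 in the 4 libraries in which Prf1 had a count. Gzma, which encodes granzyme A, had 9 and 14 counts in Cis WT, 0 and 0 in Cis KO, and 0 and 24 in Cis Stat6 KO. Both Cis WT libraries lay above both Cis KO libraries for Gzma, at a level of a few reads.

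The genotypes were then compared gene by gene with edgeR's quasi-likelihood test over all genes, with a Benjamini-Hochberg adjusted p under 0.05 as the threshold. Of the 36 genes, 28 passed the filter on low counts and were tested: all 16 T genes, 8 of 13 B genes and 4 of 7 NK and cytotoxic genes. Pax5, Blk, Ebf1, Cr2, Jchain, Klrb1c, Ncr1 and Eomes were not tested. The 3 comparisons share libraries, so their values are given side by side and are not independent. The smallest p that an exact permutation test of 2 libraries against 2 can give is 0.333.

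Cis KO against Cis WT asks what loss of CIS changes. None of the 28 lymphocyte genes passed the threshold, where 0.274% of the 16765 tested genes did. By edgeR, an unadjusted p under 0.05 was reached by 2 of the 28, Cd79b and Ms4a1, against 11.1% of all genes, and DESeq2 called 1, Cd79b, where it called 3.44% of all genes. The 2 libraries of a group lay wholly on 1 side of the other group for 3 of the 28, Ms4a1, Fcrla and Gzma, against 47.4% of all genes. Cd79b was at least 257-fold higher in Cis KO, set against 3 counts over the group on counts per library total, with an edgeR adjusted p of 0.437. All its Cis KO counts came from replicate 2. Among T genes the smallest p belonged to Cd3e, with a log2 fold change of -1.15 ± 1.04 (SE) and an adjusted p of 0.651 in edgeR. Among NK and cytotoxic genes it belonged to Gzma, at least 6.98-fold lower, with an adjusted p of 0.476 in edgeR. The median log2 fold change was -0.13 over the 16 T genes, 5.05 over the 8 tested B genes and -1.45 over the 4 tested NK and cytotoxic genes, beside -0.05 over all tested genes. The B median rested on Cis KO replicate 2, without which it was -0.82 over 9 B genes then tested. Without Cis WT replicate 1 the T median was 1.21 and the NK and cytotoxic median -0.03. Without Cis KO replicate 2, none of the lymphocyte genes passed in edgeR. Without Cis KO replicate 1, so that replicate 2 stands for the group alone and is assumed to vary like the others, 7 of the lymphocyte genes passed in edgeR, Cd28 lower and Cd79a, Cd79b, Ms4a1, Ighd, Igkc and Fcrla higher, where 28.8% of all genes did. Without the filter on low counts 5 passed in edgeR, Cd79a, Cd79b, Ighm, Ighd and Igkc, all higher, where 3.9% of all genes did.

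1 gene of the other lymphocyte lists passed in this comparison, where 0.274% of all tested genes did. Il7r, the receptor for the lymphocyte survival factor interleukin 7, stood at 32.9 and 22.6 CPM in Cis WT, 3.74 and 3.20 in Cis KO, and 11.2 and 18.5 in Cis Stat6 KO. It was lower in both Cis KO libraries than in any other, and it fell by 3.00 ± 0.36 on the log2 scale (SE), with an adjusted p of 0.0441 in edgeR. Il7r also passed with DESeq2 (adjusted p 1.05e-12), and in edgeR with RLE factors (0.0451) and without the filter (9.17e-14). In edgeR, Il7r had a log2 fold change of -3.13 without Cis KO replicate 1 and of -2.89 without Cis KO replicate 2. It did not pass under the settings that follow. Its adjusted p was 0.0533 with library totals, 0.161 with the 2 groups alone and 0.0826 with the replicate number as a block, and 0.0875 to 0.221 without either Cis WT or either Cis Stat6 KO library in edgeR. The Cis WT libraries differed less in Il7r than in the T sum of 43.4 and 11.2 CPM.

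Cis Stat6 KO against Cis KO asks what loss of STAT6 adds. None of the 28 passed in edgeR, beside 0.358% of all tested genes. An unadjusted p under 0.05 was reached in edgeR by 1 of the 28, Ighd, against 18.3% of all genes, and DESeq2 called 0, beside 9.85% of all genes. Only Ms4a1 of the 28 had groups that did not overlap, against 50.4% of all genes. Ighd had a log2 fold change of -7.63 ± 3.17 (SE) with an adjusted p of 0.273 in edgeR. Without Cis KO replicate 2 its sign turned, to 4.35, so this difference was that of 1 library. Among T genes Tcf7 had the smallest p, with -0.85 ± 0.99 and an adjusted p of 0.670 in edgeR. Among NK and cytotoxic genes it was Gzma, at least 7.49-fold higher, with an edgeR adjusted p of 0.333. All its counts in this comparison came from Cis Stat6 KO replicate 2. The median log2 fold change was 0.12 over the T genes, -2.40 over the 8 B genes and 2.64 over the 4 NK and cytotoxic genes, beside 0.05 over all genes. Without Cis KO replicate 2 the B median was 4.35, and without Cis Stat6 KO replicate 2 the T median was -1.39 and the NK and cytotoxic median -0.87. Without Cis KO replicate 1, 4 passed in edgeR, Cd28 higher and Cd79a, Cd79b and Ighd lower, where 32.2% of all genes did. Without the filter 5 passed in edgeR, Jchain higher and Cd79a, Cd79b, Ighm and Ighd lower, where 7.02% of all genes did.

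Cis Stat6 KO against Cis WT compares the combined loss with the wild type and leaves Cis KO replicate 2 out of the contrast. That library still entered the estimate of spread, which all 6 libraries share. None of the 28 passed in edgeR, beside 0.131% of all tested genes, and none had an unadjusted p under 0.05, against 5.36%. DESeq2 called 1, Cd79b, beside 1.97% of all genes, on 4 and 14 counts in the 2 Cis Stat6 KO libraries. The groups did not overlap for 2 of the 28, Lef1 and Cd79b, against 46.8% of all genes. Igkc had a log2 fold change of 5.30 ± 2.65 (SE) with an edgeR adjusted p of 1. Without Cis Stat6 KO replicate 2 it was -1.70. Gzmb had 1.26 ± 1.58 with an edgeR adjusted p of 1. Without the same library it was -2.43. Lef1 had 1.45 ± 1.90, also with an edgeR adjusted p of 1. With only these 2 groups fitted, Igkc had an edgeR adjusted p of 0.289. In that fit 277 of the 16182 genes tested passed, and none of the lymphocyte genes. Without the filter 3 passed in edgeR, Cd79b, Igkc and Jchain, all higher, where 1.47% of all genes did, and without Cis KO replicate 1 none passed, where 1.65% of all genes did. The median log2 fold change was -0.24 over the T genes, 1.13 over the 8 B genes and 0.78 over the 4 NK and cytotoxic genes, beside 0.00 over all genes. Without Cis Stat6 KO replicate 2 these medians were -1.64, -1.70 and -1.81, and without Cis WT replicate 1 the T median was 1.02.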

How the data were processed

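Counts and levels come from 2 deposited tables per library. The authors deposited a raw count of reads per gene, whole numbers that were not normalised, per the file headers. The authors also deposited FPKM values, which divide by gene length and library total and are rounded to 0.01. Genome build mm10 is named in the submitters' processing notes. For the aligner, the counter and the strand setting, no source used here gives an answer. Overlapping and near-identical genes therefore have uncertain counts.

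The test was edgeR 4.0.16 (R 4.3.3) with TMM scaling. A single fit of all 6 libraries had genotype as its only term, and filterByExpr left 16765 genes to test. SE is the size of the log2 fold change over the square root of F. CPM uses the TMM factors. Alternatives were DESeq2 1.42.0, RLE factors, library totals, no filter, only the groups compared, a replicate block, and each library left out. With the values in view, orders of libraries on other scales and lineage medians under these settings were added. The 36 genes, the further lists and the naming rule were chosen with earlier results of these data known. The rule names every one of the 36 genes, tests with the smallest p per lineage, and in other lists the called genes and the 2 with the highest FPKM. Some genes that the rule names are left out of the text. Intervals are 95% and cover counting error only. Gene coordinates are those of the files, and 31 of 36 were the same in GENCODE M21.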

Additional observations from a re-analysis of the deposited data

How the results depend on the processing

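With library totals without scaling the genes called were 26 and 29 in the first 2 comparisons (Cis KO against Cis WT and Cis Stat6 KO against Cis KO). DESeq2 called 545, 1560 and 321 genes in the 3 comparisons, no filter 1021, 1840 and 385, and only the groups compared 6, 5 and 277. Leaving out 1 library gave 3 to 5349, 4 to 5999 and 0 to 350. Of the 36 lymphocyte genes, DESeq2 called 1, 0 and 1, no filter 5, 5 and 3, and leaving out 1 library 0 to 7, 0 to 4 and 0. The 7 and the 4 came without Cis KO replicate 1.

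Deviations of same-numbered libraries correlated at -0.03, -0.07 and 0.01, so the levels showed no pairing by replicate number. With 2 libraries per group, these values cannot decide whether same-numbered libraries were handled together. With the replicate number as a block, 24, 28 and 12 genes passed and none of the lymphocyte genes.

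Reversed log2 fold changes were Ighd at 4.35 without Cis KO replicate 2 (range over libraries left out -11.87 to 4.35), and, without Cis Stat6 KO replicate 2, Igkc at -1.70 (-1.70 to 6.28) and Gzmb at -2.43 (-2.43 to 2.49). Cd79b without Cis KO replicate 2 and Gzma without Cis Stat6 KO replicate 2 had 0 counts on both sides and gave no value.

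The mean T share was 27.0%, 16.3% and 17.5% in Cis WT, Cis KO and Cis Stat6 KO. With the median FPKM it was 74.4%, 53.5% and 65.7%, and without 10 genes of wide expression (Cd4, Cd8a, Cd27, Cd28, Ebf1, Nkg7, Gzma, Gzmb, Prf1 and Eomes) it was 59.8% and 41.5% in the first 2. In Cis WT the B share of 15.5% became 2.06% without immunoglobulin genes, 37.5% without the 10 genes and 4.81% with the median, and the NK and cytotoxic share of 57.5% became 66.8%, 2.73% and 20.8%. With 1 library of a group left out, T shares were 21.1% to 32.9%, 4.01% to 28.5% and 7.88% to 27.1%, B shares 13.7% to 17.3%, 5.84% to 94.5% and 12.4% to 74.3%, and NK and cytotoxic shares 53.4% to 61.6%, 1.44% to 65.7% and 17.8% to 60.4%. At these depths, genes of a few counts give no reliable order of libraries.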
